A study of Mus musculus with 30 samples.

Results

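Lymphomas grown from EL4, a mouse T cell line, were compared at 18 h and at 0 h after oxaliplatin in mice pretreated with antibiotics. The comparison took every array labelled as an antibiotic tumour at 18 h (5 arrays) and every one labelled so at 0 h (5 arrays), 10 of the 30 arrays in the series. Both groups were labelled WT, had received an antibiotic cocktail for 3 weeks before the tumour cells were placed under the skin, and were assigned to oxaliplatin at 10 mg per kg into the peritoneum 7 days after inoculation. They differed in the hours between the injection and collection. The other arrays came from antibiotic tumours at 6 h and from tumours of mice kept on water at 0, 6 and 18 h. These were also EL4 tumours labelled WT, with the same dose of oxaliplatin and the same tumour age. The study set out to learn what antibiotics do to tumour gene expression before and soon after this drug. No tumours at 18 h without oxaliplatin were analysed here, so the drug and the passing of time cannot be told apart. Since the labels leave it unsaid whether each tumour came from its own mouse, the spread among samples may be technical in part. The p-values rest on that spread, estimated within the 6 groups of all 30 arrays.

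Oxaliplatin is a platinum drug whose adducts block replication and transcription, and damaged cells stabilise p53, a transcription factor that switches on genes for growth arrest, repair and cell death. A separate programme, the integrated stress response, is run by the transcription factor ATF4 when amino acids are short or unfolded proteins build up. ATF4 switches on amino acid transporters, enzymes of amino acid synthesis and the synthetases that load amino acids onto tRNA, and through its partner CHOP (gene Ddit3) genes that lead to cell death. Tumours under the skin also hold host macrophages, neutrophils, vessels and fibroblasts, which can make cytokines such as interleukin 6 and interleukin 1 beta.

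Values are log2 expression as deposited, changes are log2 differences of 18 h minus 0 h with the SE of the model, and genes with an adjusted p under 0.05 are said to have passed. The median of an array was between 7.25 and 7.34, and no 2 arrays held identical values. Correlations over genes were 0.991 to 0.997 within the 18 h group and 0.995 to 0.997 within the 0 h group. Arrays are numbered 1 to 5 within a group in the order of the series, as names only. The lymphoma origin showed in high levels of the T cell receptor chain gene Cd3e (11.23 at 18 h and 11.28 at 0 h) and of the T cell surface gene Thy1 (11.91 at 18 h and 11.96 at 0 h). Of 14 T cell markers 0 passed, and their mean per array was 9.37 to 9.46 at 18 h and 9.35 to 9.43 at 0 h. Array 1 at 18 h stood apart in tissue markers, with a keratinocyte marker mean of 7.49 against 6.51 to 6.84 on the other 18 h arrays, and with the lowest macrophage marker mean of its group, 8.83 against 9.21 to 9.49. Of 172 markers in 14 lists of cell types, 1 passed, the matrix protease gene Mmp3, which was higher.

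In antibiotic tumours at 18 h, 28 of 72 tested genes of amino acid supply and the ATF4 programme were lower than at 0 h. The rest of the 72 did not pass. Of 40 tested genes in the lists of p53 response and death receptor genes, 8 were higher. These lists were chosen with earlier results of these data known, so their counts are a description and no test. Of 19938 genes tested, 244 passed (1.22%), 63 of them higher (0.316%) and 181 lower (0.908%). The changes were small: the median rise among genes that passed was 0.284 and the median fall was -0.261. Il6 and Il1b, both cytokine genes, rose more than 2-fold, and Chac1, a glutathione-degrading enzyme gene, fell more than 2-fold. The 5 arrays at 18 h lay apart from the 5 arrays at 0 h in 649 genes (3.26% of all). The median over all genes tested was 0.012.

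The share of higher calls depended on the scaling, with more genes lower than higher each time. With the median of each array subtracted, 31 genes were higher and 214 lower, so that 12.7% of calls were higher, against 25.8% with the values as deposited. Quantile normalisation gave 121 higher and 229 lower. The number that passed also depended on which arrays entered: 94 without 18 h array 5, 156 and 133 without 18 h arrays 2 and 3, and 120 and 146 without 0 h arrays 2 and 5. It was 46 when the error was estimated from these 2 groups alone.

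**Figure D1:**
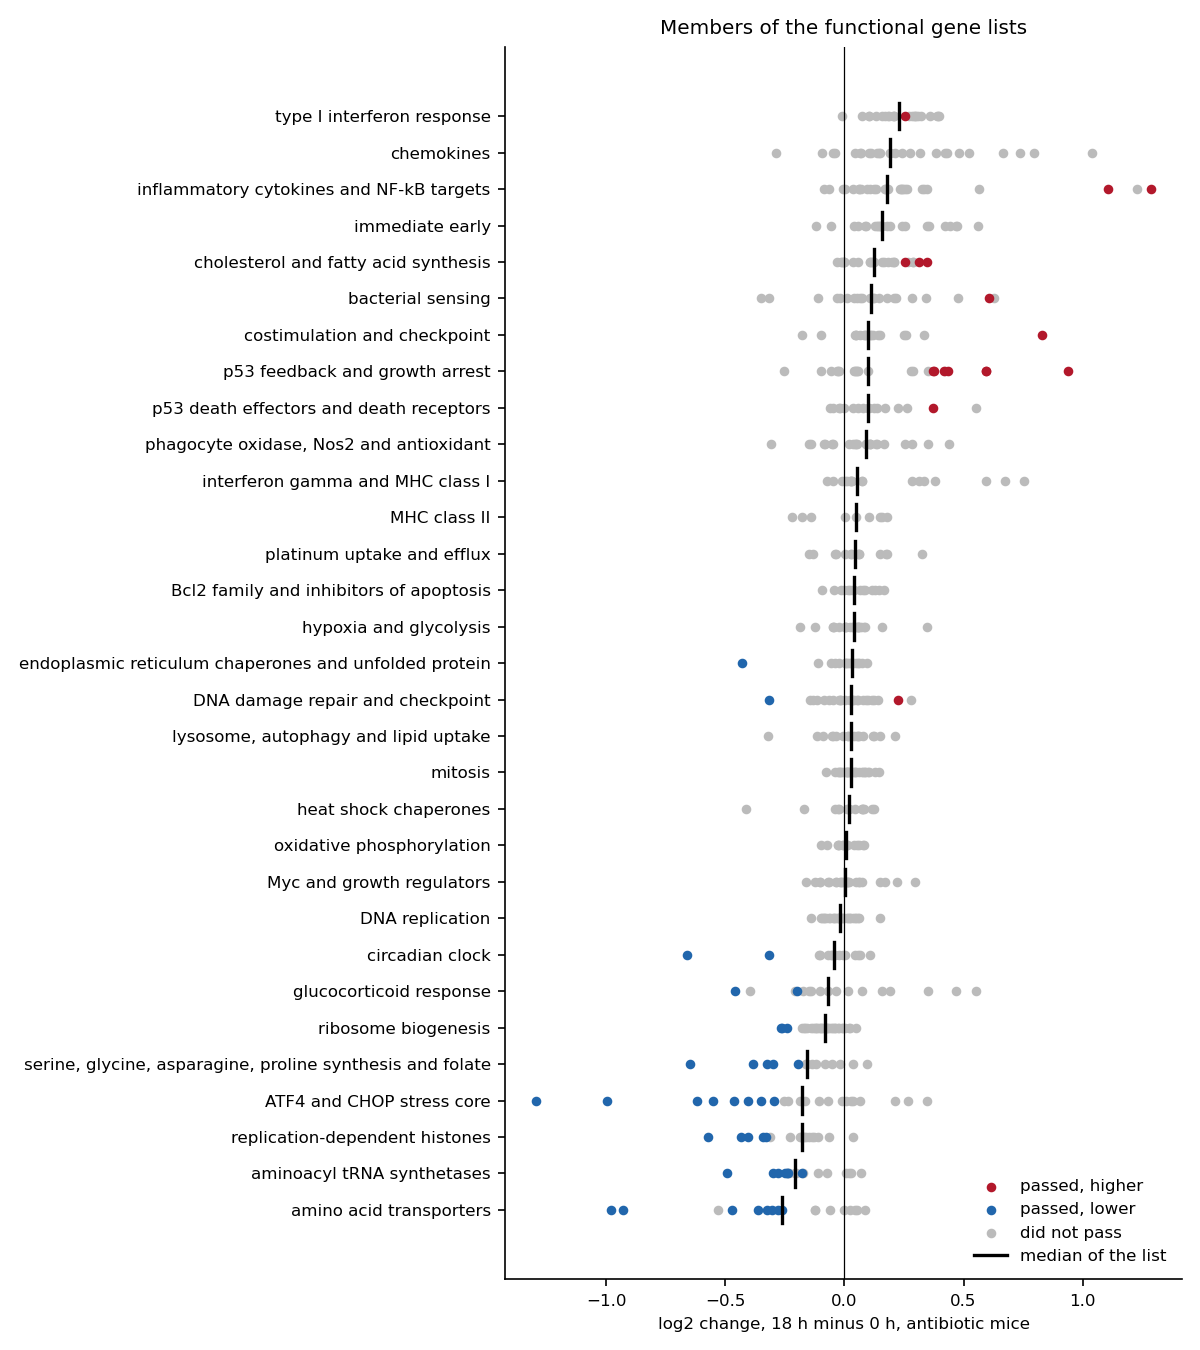
Change of every tested member of the functional gene lists (log2, 18 h minus 0 h, antibiotic mice), 1 row per list, with members that passed in red (higher) or blue (lower) and the list median as a black line. The 4 lists of ATF4 targets and amino acid supply hold 28 members that were lower and 0 that were higher, and the p53 lists hold 8 that were higher and 0 lower. The lists were chosen with earlier results of these data known.

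The ATF4 and CHOP list had 22 tested members, of which 8 were lower and 0 higher, with a median change of -0.18 beside 0.012 for all genes. Chac1, a CHOP and ATF4 target that breaks down glutathione, had 8.56, 8.71, 8.77, 9.05 and 8.31 on the 18 h arrays, against 9.87, 10.25, 10.42, 9.79 and 9.55 on the 0 h arrays. Every 18 h array lay below every 0 h array by at least the gap between 9.05 and 9.55, and Chac1 fell by 1.29 ± 0.168 (adjusted p = 5.45e-05, a 2.45-fold lower level). Trib3, a pseudokinase gene that ATF4 and CHOP induce and that restrains them, had 8.21, 8.10, 8.13, 8.32 and 7.77 at 18 h, against 8.97, 9.23, 9.05, 9.11 and 9.15 at 0 h. Its groups did not overlap either, and it fell by 1.00 ± 0.146 (adjusted p = 0.000273).

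The upstream factors themselves moved less. Atf4 had 9.54, 9.53, 9.50, 9.63 and 9.32 at 18 h, against 9.82, 9.86, 9.87, 9.89 and 9.83 at 0 h, a fall of 0.35 ± 0.0437 (adjusted p = 4.00e-05). Ddit3 had 8.66, 9.03, 8.92, 8.94 and 8.67 at 18 h, against 9.14, 9.42, 9.46, 9.32 and 9.19 at 0 h, a fall of 0.46 ± 0.0863 (adjusted p = 0.00415). In both genes all 18 h arrays were below all 0 h arrays, and array 5 was at or near the bottom of the 18 h group. Eif4ebp1, whose protein holds back cap-dependent translation, fell by 0.55 ± 0.0711, and Stc2, a secreted stress glycoprotein gene, by 0.62 ± 0.15. Nupr1, a stress-induced chromatin protein gene, fell by 0.40 ± 0.0962 and Ern1, the IRE1 sensor of unfolded proteins, by 0.29 ± 0.0648. Genes of kinases that can start the response did not pass, with Eif2ak2, Eif2ak3 and Eif2ak4 at 0.27, 0.21 and 0.07. Atf3, another stress-induced factor, stood at 0.34 (adjusted p = 0.36).

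Stc2, Nupr1 and Ern1 were less secure than the others. They passed in 2, 5 and 5 of the 10 fits that each left out 1 array, with adjusted p up to 0.152, 0.115 and 0.0833. The count of 8 became 5 without 18 h array 5, 5 without 0 h array 2, 5 without 0 h array 4 and 5 with these 2 groups fitted alone.

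Promoters are shown for 5 genes that fell, because these windows hold the element through which C/EBP and ATF factors act, TGATGNAA. It was searched on both strands in the window from 250 bases before to 50 bases after the RefSeq start of each gene (RefSeq, GRCm38.p6), and TTGCATCA is the same element read from the opposite strand with C at its N. Capitals mark the match, which in all 5 lies on the strand opposite to the gene. Chac1 is shown at chr2:119351009-119351096 (+), Trib3 at chr2:152344031-152344086 (-), Nupr1 at chr7:126625533-126625620 (-), Slc1a4 at chr11:20332684-20332757 (-) and Got1 at chr19:43524660-43524747 (-).
Chac1: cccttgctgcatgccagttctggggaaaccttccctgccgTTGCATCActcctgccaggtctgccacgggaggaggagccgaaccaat
Trib3: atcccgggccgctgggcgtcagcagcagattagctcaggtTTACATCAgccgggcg
Nupr1: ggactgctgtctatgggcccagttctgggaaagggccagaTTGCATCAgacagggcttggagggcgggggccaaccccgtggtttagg
Slc1a4: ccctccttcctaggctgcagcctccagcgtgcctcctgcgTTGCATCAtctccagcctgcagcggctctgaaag
Got1: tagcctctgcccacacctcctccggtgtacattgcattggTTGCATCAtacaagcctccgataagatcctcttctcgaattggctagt

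The first base of the match lay 193 bases before the start in Chac1, 110 in Nupr1, 102 in Got1 and 4 in Slc1a4, and at base 15 in Trib3, counting the start as 1. TGATGNAA was present in 9 of the 22 windows found for the 28 genes of the amino acid lists that fell (40.9%), which were those of Chac1, Gars, Got1, Iars, Nupr1, Slc1a4, Slc7a7, Trib3 and Yars. Among all genes that were lower it was present in 13 of 144 windows (9.03%), these 9 included, and among those higher in 2 of 52. It was present in 3.62% of the windows of all 15614 tested genes that had one, and in 4.51% of all 27025 windows. The lists hold ATF4 targets by design, and their members that did not fall were not counted. The 40.9% therefore does not tell members that fell from those that did not. TTGCATCA was in 7 of the 22 windows and in 0.82% of those of the tested genes. A match describes these letters and is no evidence of binding.

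Amino acid transporters had the most negative median of any list, -0.26 over 17 tested members, with 8 lower and 0 higher. Slc1a4, which carries alanine, serine and cysteine, had 9.17, 9.11, 9.10, 9.41 and 8.76 at 18 h, against 9.92, 10.11, 9.84, 10.16 and 10.16 at 0 h. It fell by 0.93 ± 0.0969 (adjusted p = 2.84e-06), the joint smallest adjusted p of all genes, shared with Uhrf1bp1. Slc6a9, the glycine transporter GLYT1, had 9.92, 9.58, 9.70, 10.04 and 9.19 at 18 h, against 10.61, 10.72, 10.39, 10.73 and 10.88 at 0 h. It fell by 0.98 ± 0.133 (adjusted p = 8.69e-05). Neither gene's groups overlapped, and array 5 was again the lowest at 18 h.

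The remaining transporters that fell changed less. Slc7a1, which takes up arginine and lysine, fell by 0.47 ± 0.073, and Slc38a2, which takes up small neutral amino acids including glutamine, by 0.32 ± 0.052. Slc3a2, the heavy chain shared by several exchangers, had 12.42, 12.41, 12.41, 12.48 and 12.26 at 18 h, against 12.73, 12.82, 12.73, 12.79 and 12.73 at 0 h, a fall of 0.36 ± 0.0445. Its groups did not overlap, and its partner light chains Slc7a5 and Slc7a7 fell by 0.30 ± 0.0681 and 0.28 ± 0.0699. The glutamine carrier Slc1a5 fell by 0.26 ± 0.061. Slc7a11, the cystine light chain of the same family, did not pass, with a change of -0.53 (adjusted p = 0.27). Slc7a5, Slc7a7 and Slc1a5 passed in 6, 4 and 4 of the 10 fits that left out 1 array (adjusted p up to 0.0964, 0.151 and 0.0867). The count of 8 was 5 without 18 h array 2 or 5 and 5 without 0 h array 2 or 5.

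**Figure D2:**
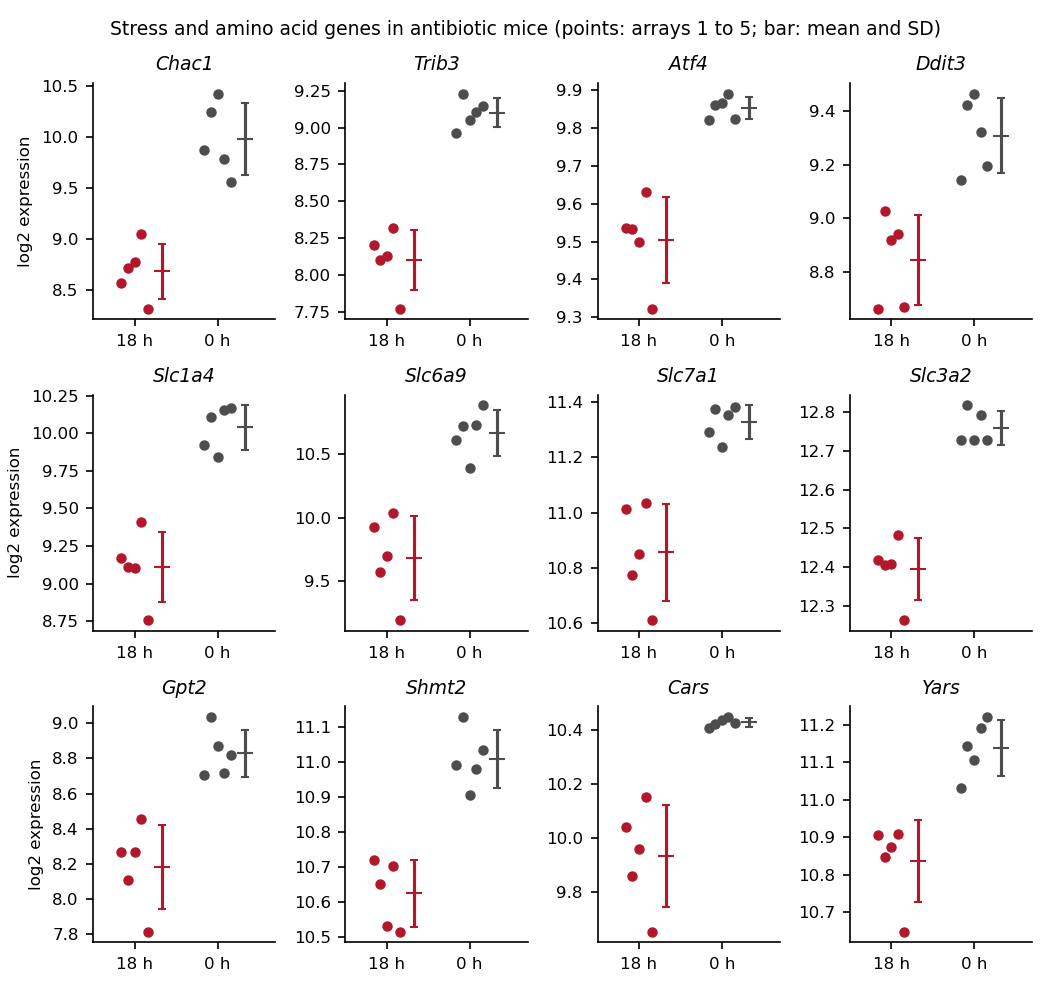
Log2 expression of 12 stress and amino acid genes on each array (points, arrays 1 to 5 from left to right) in antibiotic tumours at 18 h (left, red) and 0 h (right, grey), with mean and SD beside them. In all 12 genes the 5 arrays at 18 h lie below the 5 at 0 h.

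Enzymes of amino acid and folate metabolism were lower in part. Of 15 tested members 5 were lower and 0 higher (median -0.16). Gpt2, the mitochondrial alanine transaminase, had 8.27, 8.11, 8.27, 8.46 and 7.82 at 18 h, against 8.71, 9.04, 8.87, 8.72 and 8.82 at 0 h, and fell by 0.65 ± 0.0956 (adjusted p = 0.000305). The mitochondrial serine and folate enzymes Shmt2 and Mthfd2 fell by 0.38 ± 0.0567 and 0.33 ± 0.0818. Aldh18a1, which makes the precursor of proline, fell by 0.30 ± 0.0655 and the aspartate transaminase Got1 by 0.20 ± 0.0451. The groups of Gpt2 and Shmt2 did not overlap, whereas those of Got1 did.

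Other ATF4 targets of this list did not pass. Asns, asparagine synthetase, had means of 12.86 at 18 h and 12.91 at 0 h, with a change of -0.05 (95% interval -0.14 to 0.03). Phgdh and Psat1, the first enzymes of serine synthesis, stood at -0.16 each (adjusted p = 0.33 and 0.0939). Outside the list Pck2, the mitochondrial PEP carboxykinase, fell by 0.55 ± 0.0993 and Bcat1, which transaminates branched-chain amino acids, by 0.28 ± 0.0501. Mthfd2, Aldh18a1 and Got1 passed in 3, 7 and 6 of the 10 fits that left out 1 array (adjusted p up to 0.193, 0.0833 and 0.115). The count of 5 was 2 without 18 h array 5, 2 without 0 h array 2 or 5, 3 without 18 h array 3, and 2 with these 2 groups fitted alone.

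Of 18 tested cytosolic aminoacyl tRNA synthetases 7 were lower and 0 higher (median -0.21). Cars, the cysteine enzyme, had 10.04, 9.86, 9.96, 10.15 and 9.65 at 18 h, against 10.40, 10.42, 10.44, 10.45 and 10.42 at 0 h. The 0 h arrays were nearly level (SD 0.0156) and the 18 h arrays more spread (SD 0.189), and Cars fell by 0.49 ± 0.0629 (adjusted p = 4.81e-05). The tyrosine, serine, glycine, isoleucine and asparagine enzymes Yars, Sars, Gars, Iars and Nars fell by 0.30 ± 0.0494, 0.28 ± 0.0488, 0.24 ± 0.0473, 0.24 ± 0.0513 and 0.25 ± 0.0568. Vars, for valine, fell by 0.18 ± 0.0447. The 11 others did not pass. Iars, Nars and Vars passed in 8, 6 and 4 of the 10 fits that left out 1 array (adjusted p up to 0.0759, 0.106 and 0.158). The count of 7 was 4 without 18 h array 5, 4 without 0 h array 2 and 1 with these 2 groups fitted alone.

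These 4 lists together held 72 tested genes, of which 28 were lower and 0 higher, beside 0.908% lower among all genes. The lists were chosen with earlier results of these data known, so setting these shares side by side is no test. In 24 of the 28 the groups did not overlap, as was so for 80.3% of all genes that passed. On the 18 h arrays, array 5 was the lowest in 25 of the 28 and array 4 the highest in 18. In the list of endoplasmic reticulum chaperones and unfolded protein genes, 1 of 21 members passed, and the median was 0.030. That member was Herpud1, which aids the removal of misfolded proteins and fell by 0.43 ± 0.065, and it passed in all 10 fits that left out 1 array. Hspa5, the chaperone BiP, stood at 0.06 with a 95% interval of -0.05 to 0.17. Of 34 ribosome biogenesis genes 3 were lower (median -0.081): Polr1b, a subunit of RNA polymerase I, by 0.27 ± 0.051, and the processing factors Rrp12 and Bysl by 0.26 ± 0.05 and 0.24 ± 0.0537. Bysl passed in 5 of the 10 fits that left out 1 array (adjusted p up to 0.0911).

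Target genes of p53 rose in part. In the list of feedback and growth arrest genes 7 of 23 tested members were higher and 0 lower, with a median of 0.099 beside 0.012 for all genes. Trp53inp1, which promotes p53-dependent death and autophagy, had 9.74, 9.96, 10.22, 9.66 and 10.75 at 18 h, against 8.75, 9.26, 9.33, 9.12 and 9.18 at 0 h. The groups did not overlap, array 5 was the highest at 18 h, array 1 the lowest at 0 h, and the gene rose by 0.94 ± 0.184 (adjusted p = 0.00607). Btg2, an antiproliferative gene, had 9.07, 9.64, 9.65, 9.52 and 9.97 at 18 h, against 9.04, 8.94, 9.03, 9.00 and 8.86 at 0 h, and rose by 0.60 ± 0.113 (adjusted p = 0.00502). Its 18 h array 1 was barely above the 0 h arrays.

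Mdm2, the ligase that degrades p53, had 10.79, 10.90, 10.91, 10.84 and 11.27 at 18 h, against 10.45, 10.60, 10.61, 10.59 and 10.58 at 0 h, a rise of 0.38 ± 0.0765 (adjusted p = 0.00818). Ccng1, cyclin G1, had 12.32, 12.39, 12.48, 12.32 and 12.68 at 18 h, against 11.87, 12.06, 12.09, 11.97 and 12.04 at 0 h, a rise of 0.43 ± 0.0848 (adjusted p = 0.00588). In both genes the groups were apart and array 5 was the highest at 18 h. Zmat3, an RNA-binding p53 target, rose by 0.59 ± 0.139, Ercc5, the XPG nuclease of nucleotide excision repair, by 0.42 ± 0.0958, and Ei24 by 0.37 ± 0.0714.

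Of 17 death effector and death receptor genes 1 passed (median 0.099): Apaf1, the core of the apoptosome, rose by 0.37 ± 0.0763 (adjusted p = 0.00918). Fas, a death receptor, did not pass at 0.55 ± 0.147 (adjusted p = 0.0604), and the BH3-only genes Bbc3 and Pmaip1 stood at 0.17 and 0.10. Some p53 targets showed no rise that passed: Phlda3 at 0.04, Ddb2 at -0.03, Gadd45a at -0.06 and Sesn2 at -0.25 ± 0.157 (adjusted p = 0.633). Ddias, which protects damaged cells from apoptosis, rose by 0.84 ± 0.167, and the costimulatory ligand gene Cd80 by 0.83 ± 0.169. Cd80 had 8.84, 9.19, 9.63, 9.13 and 10.11 at 18 h, against 8.69, 8.73, 8.46, 8.44 and 8.43 at 0 h, and its groups did not overlap.

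In all 8 p53 list genes that rose, array 5 was the highest of the 18 h arrays. Zmat3, Ercc5 and Apaf1 passed in 5, 7 and 9 of the 10 fits that left out 1 array (adjusted p up to 0.131, 0.0859 and 0.0506), and the count of 7 stayed between 5 and 7 in those fits. It was 1 with these 2 groups fitted alone. Of 15 members of the Bcl2 family and inhibitors of apoptosis 0 passed (median 0.042).

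Promoters of 3 of these genes are shown because their windows hold a p53 decamer, the unit that is paired in a full p53 response element, with the match in capitals on the gene's own strand. The windows are from RefSeq, GRCm38.p6: Ccng1 at chr11:40755422-40755511 (-), Mdm2 at chr10:117710895-117710984 (-) and Ei24 at chr9:36797305-36797384 (-).
Ccng1: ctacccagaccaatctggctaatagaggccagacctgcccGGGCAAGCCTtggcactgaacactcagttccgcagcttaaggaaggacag
Mdm2: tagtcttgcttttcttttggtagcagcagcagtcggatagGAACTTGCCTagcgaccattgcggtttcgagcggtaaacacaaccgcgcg
Ei24: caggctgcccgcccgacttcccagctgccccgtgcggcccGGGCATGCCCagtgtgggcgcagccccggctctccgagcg

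The matches began 185, 186 and 10 bases before the start of Ccng1, Mdm2 and Ei24. The decamer, searched on both strands, was in 3 of the 6 windows found for p53 list genes that rose, in 12 of 52 windows of all genes that were higher, in 11 of 144 of those that were lower, and in 8.56% of the windows of tested genes. The 3 windows are among the 12. The p53 lists hold p53 targets by design, and their members that did not rise were not counted. The share of 3 of 6 therefore does not tell members that rose from those that did not. A full element of paired decamers was not searched for, and a match is no evidence of binding.

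Il6 and Il1b had the largest rises among genes that passed, and in both 1 of the 18 h arrays lay among the 0 h arrays. Il6, an inflammatory cytokine, had 5.95, 7.84, 7.70, 7.35 and 7.23 at 18 h, against 6.49, 5.87, 5.65, 5.96 and 5.67 at 0 h. It rose by 1.29 ± 0.312 (adjusted p = 0.032, a 2.44-fold higher level), yet 18 h array 1 lay among the 0 h arrays. All its 0 h values were below the median of every array (7.25 to 7.34), so the rise started from a low signal. Il1b, interleukin 1 beta, had 9.22, 10.79, 10.72, 10.36 and 10.58 at 18 h, against 9.69, 9.29, 8.96, 9.18 and 9.04 at 0 h, and rose by 1.10 ± 0.237 (adjusted p = 0.0131). Array 1 again lay within the 0 h range while the other 4 were all above it.

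Of 29 tested inflammatory cytokines and NF-kB targets 2 were higher and 0 lower (median 0.18). Ptgs2, cyclooxygenase 2, had 8.47, 10.60, 10.39, 9.94 and 10.22 at 18 h, against 9.56, 8.55, 8.60, 8.51 and 8.28 at 0 h. It did not pass at 1.23 ± 0.353 (adjusted p = 0.0898), with 18 h array 1 low and 0 h array 1 high. Tnf had means of 9.26 at 18 h and 9.09 at 0 h and did not pass (adjusted p = 0.228). The neutrophil attractant Cxcl2 (1.04 ± 0.408) and the macrophage chemokines Ccl3 (0.80 ± 0.278) and Ccl2 (0.52 ± 0.159) did not pass either, and 0 of 27 chemokines did (median 0.19).

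Nlrp3, an inflammasome sensor, was the 1 of 22 bacterial sensing genes to pass (median 0.11), at 0.61 ± 0.15. Its 0 h values, 6.37 to 6.82, were also below the median of every array, and 18 h array 1, at 6.67, lay among them. Nlrp3 did not pass with array medians subtracted or with quantile normalisation. The phagocyte genes Cybb (0.28 ± 0.226), Nos2 (0.44 ± 0.288) and Ncf1 (-0.05 ± 0.123) did not pass. Over the 29 inflammatory genes, 18 h array 1 was the lowest of its group in 20 and array 2 the highest in 13. Of 14 monocyte and macrophage markers 0 passed; their mean per array was 8.83, 9.49, 9.26, 9.29 and 9.21 at 18 h, against 9.44, 9.05, 9.09, 9.41 and 8.97 at 0 h. Of 16 neutrophil markers 0 passed; their mean was 6.97, 7.49, 7.35, 7.24 and 7.39 at 18 h, against 7.39, 7.15, 7.02, 7.06 and 7.03 at 0 h. The part of these cells in the cytokine values was not tested, and in bulk tissue fewer cells of a type and less RNA per cell cannot be told apart. Without 18 h array 1, 5 members of the inflammatory list were higher. Without 18 h array 2, 3 or 5 there were 0, without 0 h arrays 2 to 5 there was 1 each time, and with these 2 groups fitted alone there were 0. Il6, Il1b and Nlrp3 passed in 2, 7 and 2 of these 10 fits (adjusted p up to 0.118, 0.0587 and 0.155), Il6 and Nlrp3 only where array 1 of either group was the one left out, and Il1b in all but those without 18 h arrays 2, 3 or 5.

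**Figure D3:**
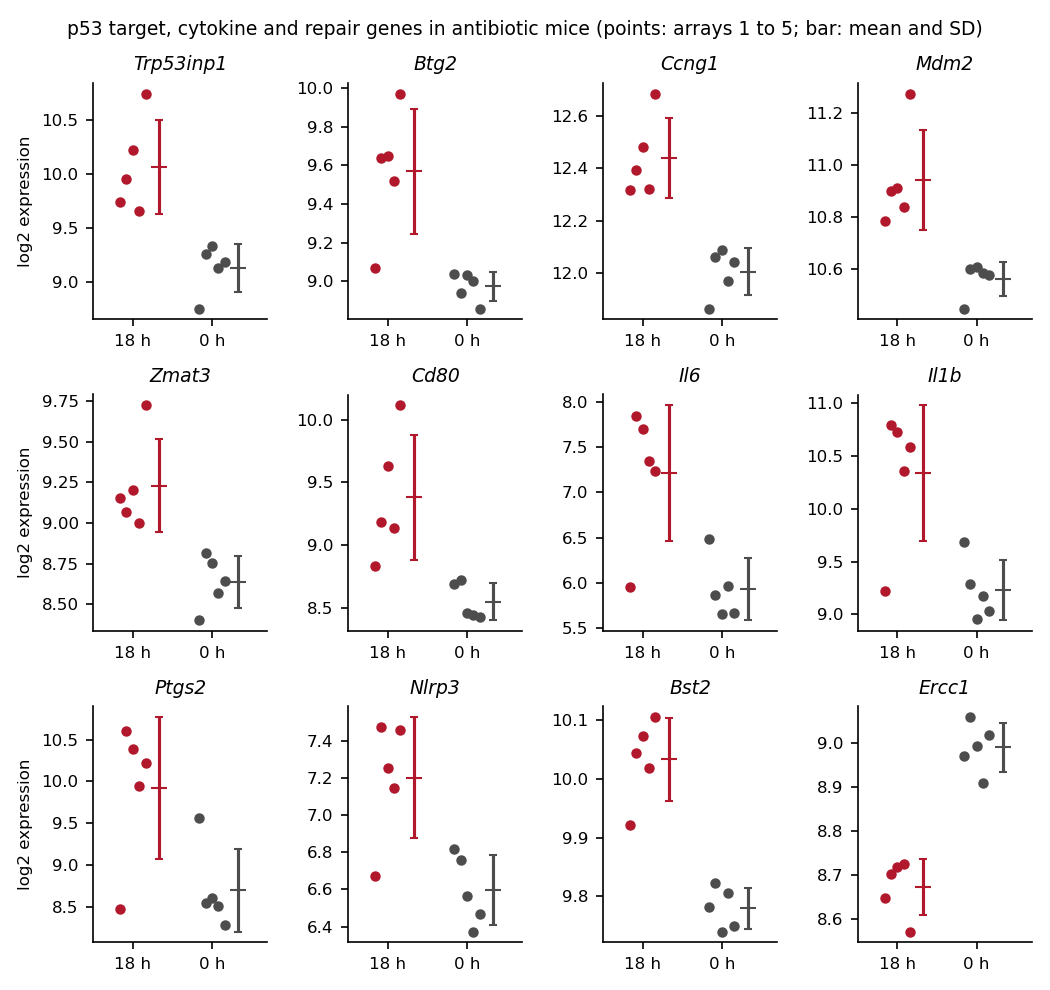
Log2 expression of 12 p53 target, cytokine and other genes on each array (points, arrays 1 to 5 from left to right) in antibiotic tumours at 18 h (left, red) and 0 h (right, grey), with mean and SD beside them. In Il6 and Il1b the first 18 h array (5.95 and 9.22) lies among the 0 h arrays, whereas in Trp53inp1, Ccng1 and Mdm2 the groups do not overlap.

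Of 24 tested type I interferon response genes 1 passed, although 23 had a change above 0 and the median, 0.23, was the highest of any list. Their mean per array was 7.48, 8.47, 8.06, 7.93 and 8.05 at 18 h, against 7.75, 7.73, 7.73, 7.97 and 7.65 at 0 h. Array 1 at 18 h was below every 0 h array and array 2 was the highest of all, so the groups overlapped. The gene that passed was Bst2, tetherin, which had 9.92, 10.04, 10.07, 10.02 and 10.11 at 18 h, against 9.78, 9.82, 9.74, 9.81 and 9.75 at 0 h. Its groups did not overlap, it rose by 0.25 ± 0.0457 (adjusted p = 0.00309), and it passed in all 10 fits that left out 1 array. Of 18 interferon gamma and MHC class I genes and 9 MHC class II genes 0 passed (medians 0.052 and 0.047).

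Of 25 cholesterol and fatty acid synthesis genes 3 were higher and 0 lower (median 0.12). Fdft1, squalene synthase, rose by 0.35 ± 0.0723, Stard4, a sterol carrier, by 0.31 ± 0.071, and Nsdhl, a sterol demethylation enzyme, by 0.25 ± 0.056. Cyp51 and Hmgcs1, at 0.29 and 0.27, did not pass (adjusted p = 0.101 and 0.104). The count of 3 was 0 without 18 h array 5, 1 without 0 h array 1, 1 with array medians subtracted and 0 with these 2 groups fitted alone.

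Replication-dependent histone genes fell in 5 of 18 tested cases, with 0 higher (median -0.18). H2ac4 had 9.01, 8.71, 8.36, 8.99 and 8.53 at 18 h, against 9.08, 9.54, 9.42, 9.26 and 9.17 at 0 h, and fell by 0.57 ± 0.121 (adjusted p = 0.0116). H2bc3, H4c3, H2bc14 and H4c6 fell by 0.43 ± 0.0941, 0.40 ± 0.09, 0.34 ± 0.0829 and 0.33 ± 0.0724, and the groups overlapped in these 4. The histone copies are close in sequence, and probes may not tell them apart. The count of 5 was 0 without 18 h array 3 or 5 or 0 h array 2, 3 without 18 h array 2 or 0 h array 3, 8 without 18 h array 1 or 4, 2 without the 6 h arrays and 0 with these 2 groups fitted alone. Of 30 DNA replication genes and 29 mitosis genes 0 passed (medians -0.020 and 0.026).

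Among 26 repair and checkpoint genes 1 was lower and 1 higher (median 0.030). Ercc1, a nuclease subunit that excises platinum adducts, had 8.65, 8.70, 8.72, 8.72 and 8.57 at 18 h, against 8.97, 9.06, 8.99, 8.91 and 9.02 at 0 h. The groups did not overlap, Ercc1 fell by 0.32 ± 0.0499 (adjusted p = 0.000657), and it passed in all 10 fits that left out 1 array. Rev1, a polymerase that copies past damaged bases, rose by 0.23 ± 0.0583 (adjusted p = 0.0481) and passed in 3 of those fits (adjusted p up to 0.215). None of 14 platinum uptake and efflux genes passed (0 of 14, median 0.044).

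A few genes of daily rhythm and steroid response fell. Ciart, a clock repressor, had 8.02, 8.32, 8.07, 8.39 and 7.95 at 18 h, against 8.74, 9.03, 8.64, 8.79 and 8.86 at 0 h, and fell by 0.66 ± 0.111 (adjusted p = 0.00161). Nr1d1, the clock repressor REV-ERB alpha, fell by 0.32 ± 0.0613, and 2 of 16 clock genes passed in all (median -0.042). Of 17 glucocorticoid response genes 2 were lower (median -0.067): Tsc22d3, the glucocorticoid-induced leucine zipper, by 0.46 ± 0.0862, and Fkbp5, a receptor co-chaperone, by 0.20 ± 0.0465. The groups did not overlap in Ciart, Nr1d1, Tsc22d3 or Fkbp5. Fkbp5 passed in 4 of the 10 fits that left out 1 array (adjusted p up to 0.0957), and the other 3 genes passed in all 10. The hour of the day at collection is not given in the labels.

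Of the remaining genes with the largest changes, several passed in all 10 fits. Uhrf1bp1 had 8.25, 8.13, 8.17, 8.30 and 8.13 at 18 h, against 8.61, 8.73, 8.64, 8.69 and 8.67 at 0 h, and fell by 0.47 ± 0.0486 (adjusted p = 2.84e-06). Nfe2l1, a transcription factor of proteasome genes, fell by 0.47 ± 0.0577, and Glrp1 by 0.51 ± 0.0972. Among rises, Dglucy, D-glutamate cyclase, rose by 0.79 ± 0.154 and passed in all 10 fits. Ptp4a3, a phosphatase gene, rose by 0.59 ± 0.133, Mybl1, a MYB family factor, by 0.48 ± 0.11, Ceacam1, an adhesion receptor, by 0.44 ± 0.0939 and Nabp1, a single-stranded DNA binding protein, by 0.49 ± 0.118. Mmp3 rose by 0.60 ± 0.149 and Amot, angiomotin, by 0.58 ± 0.148. These last 6 passed in 6, 6, 8, 3, 3 and 3 of the 10 fits, with adjusted p up to 0.0946, 0.118, 0.0705, 0.126, 0.124 and 0.156.

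In the other lists 0 members passed: Myc and growth regulators (26 tested, median 0.0024), heat shock chaperones (16, 0.018), hypoxia and glycolysis (25, 0.038), oxidative phosphorylation (18, 0.0058), phagocyte oxidase and antioxidant genes (25, 0.088), immediate early genes (23, 0.16) and lysosome, autophagy and lipid uptake (18, 0.027). Cd80 was the 1 of 18 costimulation and checkpoint genes to pass (median 0.0999).

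Several genes of amino acid supply were lower at 18 h than at 6 h as well. At 6 h 0 genes passed against 0 h (0% of 19938; smallest adjusted p 0.138), while 2011 had an unadjusted p under 0.05 by limma, and 0 members of any list passed. Against 6 h, 422 genes passed at 18 h (2.12%), 245 higher (1.23%) and 177 lower (0.888%). Of the 244 genes that differed from 0 h, 103 also passed against 6 h in the same direction, 26 higher and 77 lower. Among the 4 lists of stress and amino acid genes, 7 of 22 ATF4 and CHOP genes, 5 of 17 transporters, 4 of 15 synthesis enzymes and 5 of 18 synthetases were lower than at 6 h, and 1 other gene of the ATF4 and CHOP list was higher. Both comparisons use the 18 h arrays, so the values are given side by side only.

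Slc6a9 averaged 10.67 at 0 h, 10.60 at 6 h and 9.68 at 18 h, with SDs of 0.181, 0.337 and 0.329 (n = 5 each). Gpt2 averaged 8.83, 8.85 and 8.18 at these times, and Ddit3 9.31, 9.36 and 8.84. All 3 were lower at 18 h than at 6 h, by 0.92, 0.66 and 0.51 (adjusted p = 0.00093, 0.00093 and 0.0025). Other genes were partway down at 6 h: Chac1 averaged 9.98, 9.56 and 8.68, and Slc1a4 10.04, 9.67 and 9.11. Their changes from 0 to 6 h, -0.42 and -0.36, did not pass (adjusted p = 0.40 and 0.23). Both were lower at 18 h than at 6 h (adjusted p = 0.0086 and 0.0030). Trp53inp1 averaged 9.13, 9.59 and 10.06 at 0, 6 and 18 h and did not pass between 6 and 18 h (0.48, adjusted p = 0.18), whereas Ccng1, at 12.01, 12.08 and 12.44, did (0.36, adjusted p = 0.023). Il6 averaged 5.93, 6.22 and 7.22 and did not pass between 6 and 18 h (adjusted p = 0.091). The spread at 6 h was wider than in the other antibiotic groups, with a median SD per gene of 0.135 at 6 h, beside 0.0954 at 18 h and 0.0978 at 0 h.

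**Figure D4:**
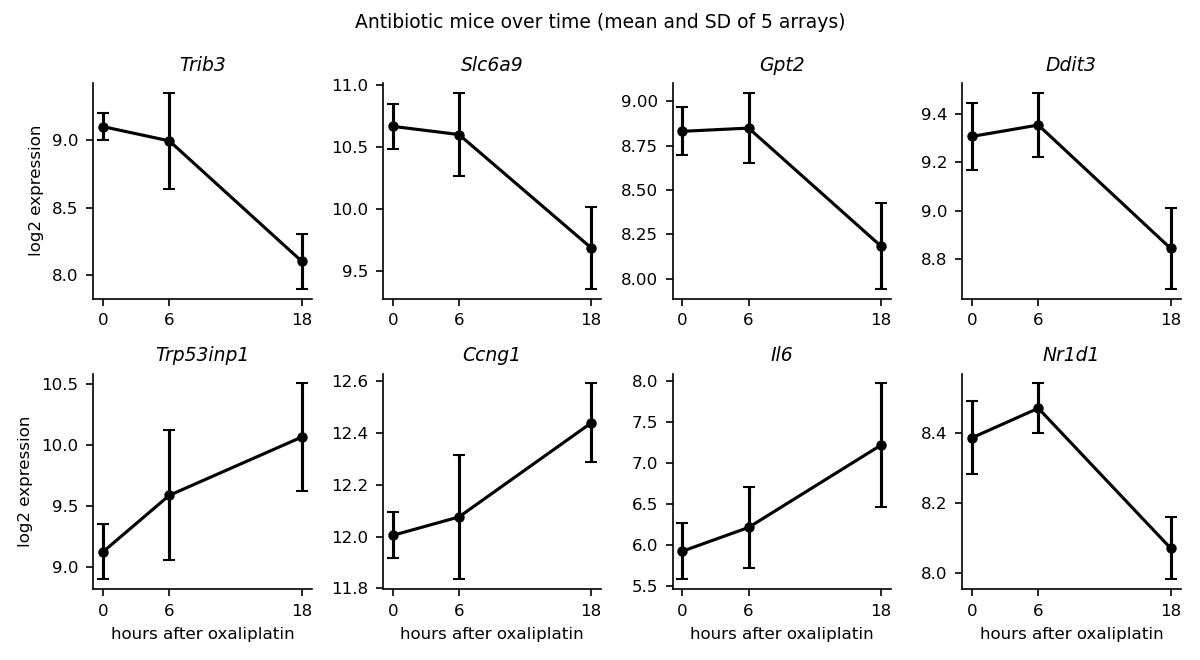
Mean log2 expression with SD (5 arrays per time) of 8 genes in antibiotic tumours at 0, 6 and 18 h after oxaliplatin. Slc6a9, Gpt2 and Ddit3 were close at 0 and 6 h and lower at 18 h, and Trp53inp1 stood at 9.13, 9.59 and 10.06.

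The same interval in mice on water was used to see whether the late change was particular to antibiotic mice, with the difference of the 2 changes (antibiotic minus water) tested as an interaction. In water tumours 14.1% of genes passed between 18 and 0 h (6.18% higher and 7.94% lower), and the interaction called 21 genes (0.105%), 9 more positive in antibiotic mice (0.0451%) and 12 more negative (0.0602%). Of the 244 genes called in antibiotic mice 1 passed the interaction: Dennd6b, with a change of -0.29 ± 0.0526 in antibiotic mice and 0.06 in water mice (interaction -0.36, 95% interval -0.51 to -0.20, adjusted p = 0.047). Its value in antibiotic tumours was 8.06, 8.11, 8.19, 8.22 and 8.10 at 18 h, against 8.42, 8.45, 8.30, 8.52 and 8.48 at 0 h, and the groups did not overlap.

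For amino acid genes the difference of the 2 changes had either sign and was close to 0 in some. Chac1 changed by -1.29 in antibiotic mice and -1.20 in water mice (interaction -0.09, 95% interval -0.58 to 0.40), and Slc6a9 by -0.98 and -0.96 (-0.02, -0.41 to 0.36). Atf4 changed by -0.35 in antibiotic mice and -0.38 in water mice (0.03, -0.10 to 0.15). The widths of these intervals do not show that the changes were equal. Slc3a2 changed by -0.36 in antibiotic mice and -0.20 in water mice (-0.16, -0.29 to -0.03), while Shmt2 changed by -0.38 and -0.58 (0.20, 0.03 to 0.36) and Iars by -0.24 and -0.41 (0.17, 0.02 to 0.32). These 3 intervals, which are not adjusted over genes, leave out 0, and none of the 3 passed the interaction (adjusted p = 0.38, 0.40 and 0.42). Such intervals lay below 0 in 1 of 22 ATF4 and CHOP genes and 1 of 17 transporters. They lay above 0 in 2 of 15 synthesis enzymes and 1 of 18 synthetases. Over all genes they lay below 0 in 4.26% and above 0 in 5.24%. Trib3 fell by 1.00 in antibiotic mice and fell by 0.64 in water mice (-0.36, -0.78 to 0.06). Its means at 0 and 18 h were 9.10 and 8.10 in antibiotic mice, and 8.30 and 7.66 in water mice. At 0 h Chac1, Slc6a9 and Atf4 averaged 9.98, 10.67 and 9.85 in antibiotic mice, and 9.19, 10.02 and 9.61 in water mice. The difference between these mice at 0 h was not tested here. Of the 72 genes of the 4 lists 1 passed the interaction, Sesn2, at -0.25 in antibiotic mice and 0.84 in water mice (-1.09, 95% interval -1.55 to -0.63, adjusted p = 0.042).

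In the p53 feedback and growth arrest list the interaction was below 0 in 19 of 23 genes (82.6%), beside 49.5% of all genes. Its 95% interval, without adjustment over genes, lay below 0 in 9 and above 0 in 0. Other lists had counts as one-sided. The interaction was below 0 in 17 of 18 lysosome and autophagy genes and 17 of 18 fibroblast markers. The same was so for 13 of 14 macrophage markers and 20 of 24 type I interferon genes. The interaction was above 0 in 27 of 29 mitosis genes, 24 of 25 cholesterol and fatty acid genes and 17 of 18 histone genes. The interval was above 0 in 17, 13 and 14 of them. The interval also lay above 0 in 8 of 16 heat shock genes and below 0 in 6 of 14 endothelial markers. Over all genes the interval lay below 0 in 4.26% and above 0 in 5.24%. The part of host cells or of cell division in the p53 values was not tested. Trp53inp1 changed by 0.94 in antibiotic mice and 1.55 in water mice (interaction -0.62, 95% interval -1.15 to -0.08, adjusted p = 0.42), and Mdm2 by 0.38 and 0.65 (-0.28, -0.50 to -0.05, adjusted p = 0.37). Neither passed. Il6 changed by 1.29 in antibiotic mice and 0.97 in water mice (0.32, -0.59 to 1.22), an interval that holds 0 and values of either sign. Histone genes fell less in antibiotic mice by their point values, with H2ac4 at -0.57 in antibiotic mice and -1.20 in water mice (0.63, 0.28 to 0.97), and did not pass (adjusted p = 0.13).

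**Figure D5:**
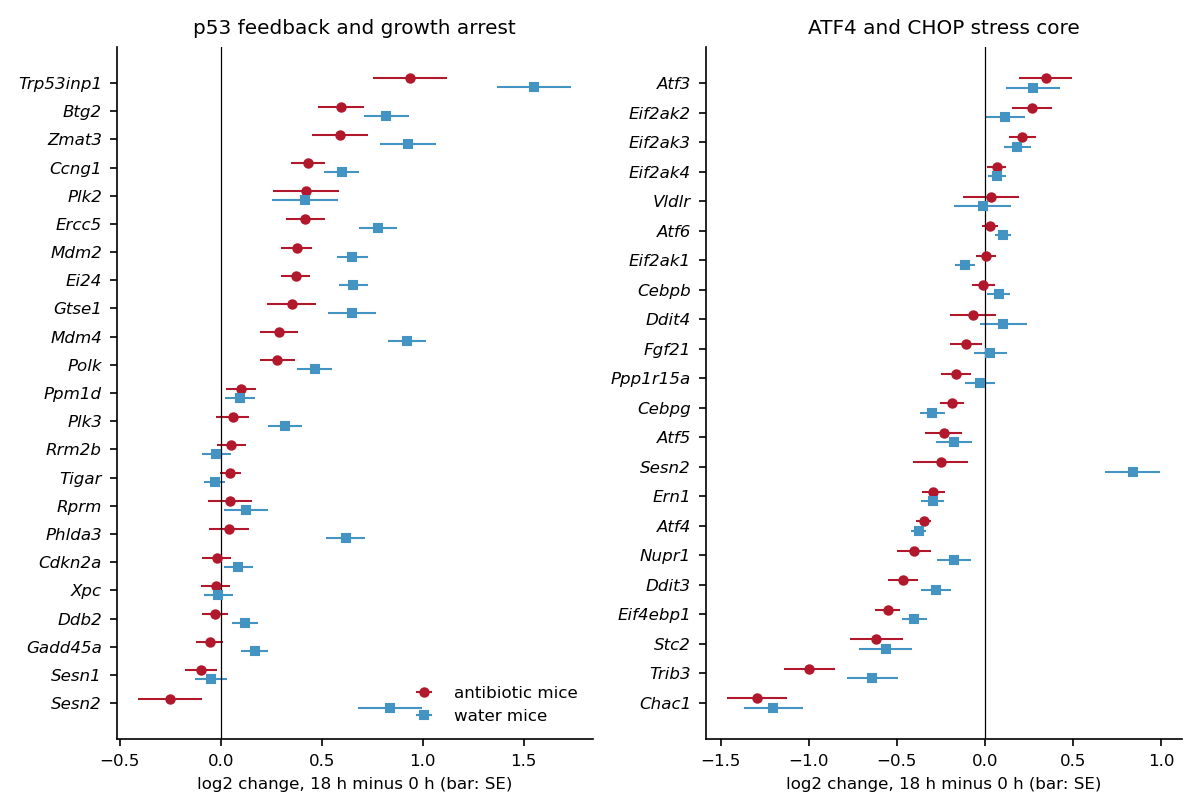
Change from 0 to 18 h (log2, points with SE) of the p53 feedback and growth arrest genes (left) and the ATF4 and CHOP genes (right) in antibiotic mice (red circles) and water mice (blue squares). Trp53inp1 stands at 0.94 in antibiotic mice and 1.55 in water mice, Chac1 at -1.29 and -1.20, and Sesn2, in both lists, at -0.25 and 0.84.

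Apart from Dennd6b, the genes that passed the interaction did not pass between 18 and 0 h in antibiotic mice. The zinc transporter gene Slc39a10 stood at 0.25 ± 0.0821 in antibiotic mice and -0.57 in water mice (interaction 0.82, adjusted p = 0.0014). Tmco4, a membrane protein gene, stood at -0.05 and 0.41 (-0.46, adjusted p = 0.0014), and Agrn, agrin, at 0.08 and 0.68 (-0.60, adjusted p = 0.016). Nmbr, a neuromedin receptor gene, stood at 0.24 and -0.36 (0.61, adjusted p = 0.021), and Mfsd2a, a lysolipid transporter, at -0.05 and -0.47 (0.42, adjusted p = 0.021). Insig1, which retains the sterol sensor complex, stood at 0.20 in antibiotic mice and -0.43 in water mice (0.64, adjusted p = 0.023), and the heat shock gene Hsph1 at 0.07 and -0.39 (0.47, adjusted p = 0.023). The adjusted p of these 7 between 18 and 0 h in antibiotic mice ran from 0.129 to 0.837. Leaving out 1 array moved the count of 21: among antibiotic mice to 2, 3 or 119 (18 h arrays 1, 4 or 5) or to 9, 13 or 11 (0 h arrays 2, 4 or 5), and among water mice to 3 or 72 (18 h arrays 3 or 5) or to 6, 11 or 2 (0 h arrays 1, 2 or 4).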

How the data were processed

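RNA from 30 tumour samples was amplified, labelled with biotin and read on 1-colour Affymetrix arrays, per the labels' protocols. The deposited values are log2 expression of 28853 rows per array, used as deposited. The submitters' processing notes name Partek 6.6 without its role, and no source used here gives the summarisation or normalisation of the probes. The 21775 rows with 1 gene symbol in the platform's probe table gave 19938 genes, with the row of highest mean taken for 998 genes with several. Cdkn1a lies on a row with several symbols and was not analysed here, like 73 of the 879 genes in the 45 lists.

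A model of 6 group means over all 30 arrays was fitted with limma 3.58.1 in R 4.3.3 (lmFit, eBayes, 24 residual and 3.63 prior degrees of freedom). The code was also run on simulated data with independent noise, equal across groups for each gene. Such data hold no effects of single arrays, so that run cannot vouch for the calls made here. P-values are two-sided and Benjamini-Hochberg adjusted over all genes within a comparison, and all adjusted p-values are limma's. An unadjusted p under 0.05 was found for 2223 genes, where chance gives about 997.

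A pool of genes to name was set by rule. It held the 15 largest rises and falls that passed, and up to 6 members per list that passed and 3 that did not. A fixed set of 11 genes and the 6 genes per direction with the smallest interaction p were added. The text names only part of this pool. Genes outside the pool were added after their values were seen, among them Nupr1, Slc7a7, Slc1a5, Vars, Bcat1, Asns, Slc7a11, Cxcl2, Hspa5, Sesn2 and Dennd6b. Members and lists were chosen with earlier results of these data known. The alternatives varied the arrays in the fit, scaling, error model, filter, row per gene and size of change, and left out each array in turn.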

Additional observations from a re-analysis of the deposited data

Results flagged for a closer look

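In groups of 5 arrays, a single array lay far from the other 4 in 20 of 338 cases examined. The cases were the genes named here except Mdm4, and the list means, each at 18 h and at 0 h. Chance alone flags about 1 in 20 such groups. At 18 h, array 5 stood apart as the lowest in Yars (10.65) and Nfe2l1 (9.765) and as the highest in Mdm2 (11.27), Ercc5 (9.851) and Zmat3 (9.724). Array 1 at 18 h stood apart as the lowest in Il1b (9.221), in the glucocorticoid list mean (9.065) and in the endothelial marker mean (8.196), and as the highest in Smarcb1 (9.974). Array 2 at 18 h was the lowest in Cyp51 (9.438).

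At 0 h, array 1 stood apart as the lowest in Psat1 (11.84), Mdm2 (10.45), Ei24 (10.79), Mybl1 (9.158), Nsdhl (9.21) and the mean of the repair and checkpoint list (9.317). The same array was the highest in Ptgs2 (9.56), Phlda3 (7.768) and the erythroid and platelet marker mean (7.563). Array 4 at 0 h was the highest in Mfsd2a (9.345).

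In 9 of the genes named here the change from 0 to 18 h differed between antibiotic and water mice by the interaction test. It was more positive in antibiotic mice in Slc39a10 (0.8235), Insig1 (0.6352), Nmbr (0.6072), Hsph1 (0.4653) and Mfsd2a (0.4156). It was more negative in antibiotic mice in Sesn2 (-1.09), Agrn (-0.5991), Tmco4 (-0.4594) and Dennd6b (-0.3568).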

How the results depend on the processing

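Of the 89 genes named here that passed, 28 did so under all 19 other settings, 61 lost the call in at least 1, and 0 changed sign. Leaving out 18 h array 5 ended 45 of these calls, 0 h array 2 ended 36, 18 h array 3 ended 32, 0 h array 5 ended 26, 18 h array 2 ended 23, and 0 h arrays 4, 1 and 3 and 18 h arrays 4 and 1 ended 17, 16, 13, 5 and 1. The cause was not tested. Over the fits without 1 array the number that passed ran from 94 to 346, those higher from 16 to 136, those lower from 78 to 222, and the interaction from 2 to 119. Fitting these 2 groups alone gave 46 genes, 6 higher and 40 lower, with fewer arrays behind the error. Array weights gave 569 genes, 159 higher and 410 lower, and the brighter genes alone gave 490, 162 higher and 328 lower, with fewer genes tested. Quantile normalisation gave 121 higher, and subtracting array medians gave 31 higher. A minimum change of 1.5-fold left 18 genes, 11 higher and 7 lower, and 5 in the interaction. The interaction held 12 genes without the 6 h arrays, 6 with array medians subtracted, 111 with quantile normalisation, 67 with an intensity trend, 121 with array weights, 34 in an ordinary linear model and 111 with the brighter genes alone. The ribosome biogenesis count of 3 lower became 5 with either scaling or an ordinary linear model, 6 with an intensity trend, 7 with the brighter genes and 9 with array weights. Synthetases numbered 12 lower with array weights, inflammatory genes 4 higher with array weights and 1 in an ordinary linear model, and cholesterol genes 5 higher among the brighter genes. These member counts under other settings were chosen after seeing the data. Ncf1, which did not pass, ran from -0.1222 to 0.03179 over the fits without 1 array, with the positive value without 18 h array 1. No paired analysis was possible because the labels give no replicate number that groups share. Precision is limited by the number of arrays, and signal over background was not analysed here.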

Other observations

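Some genes outside the lists also passed in antibiotic tumours at 18 h. They were picked from the genes that passed after their values were seen, so they say nothing of the pathways they belong to, whose other members were not counted. Pigo, which adds an ethanolamine phosphate to the glycosylphosphatidylinositol anchor of membrane proteins, had 8.21, 8.23, 8.11, 8.18 and 8.10 at 18 h, against 8.49, 8.54, 8.53, 8.50 and 8.57 at 0 h, a fall of 0.36 ± 0.0482. Pigq, of the first step of that anchor, fell by 0.16 ± 0.0354 and Gpaa1, of the enzyme that attaches it, by 0.22 ± 0.0524. Dpagt1, Alg3 and Alg8, which build the lipid-linked sugar chain of N-glycosylation, fell by 0.27 ± 0.0652, 0.28 ± 0.0692 and 0.22 ± 0.0556, and Mogs, which trims it, by 0.24 ± 0.0534. The groups did not overlap in these 7 genes, as was so for 80.3% of all genes that passed. Pigo passed in all 10 fits that left out 1 array, and Pigq, Gpaa1, Dpagt1, Alg3, Alg8 and Mogs in 8, 4, 5, 3, 4 and 6.

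Mettl1 and Trmt61a, both tRNA methyltransferase subunits, fell by 0.34 ± 0.0649 and 0.34 ± 0.0484 and passed in all 10 fits, and Ctu2, which helps to thiolate tRNA, fell by 0.16 ± 0.035 and passed in 6. Arid1a, Dpf2 and Smarcb1, subunits of the BAF chromatin remodeller, fell by 0.18 ± 0.035, 0.24 ± 0.0525 and 0.15 ± 0.0385, and its ATPase gene Smarca2 rose by 0.26 ± 0.0619. Of these 4 Arid1a passed in all 10 fits, and Dpf2, Smarcb1 and Smarca2 in 7, 2 and 5. Ackr1, a receptor that binds chemokines without signalling, had 8.67, 8.50, 8.59, 8.58 and 8.56 at 18 h, against 8.91, 8.91, 8.92, 8.93 and 8.93 at 0 h. It fell by 0.34 ± 0.0447 (adjusted p = 5.90e-05), with groups that did not overlap. Mtbp, an MDM2-binding protein gene, fell by 0.39 ± 0.068 and passed in all 10 fits.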
